A study of Caenorhabditis elegans with 2 samples.

Results

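Broad domains of CEC-7, defined as peaks wider than 5 kb in a ChIP-seq peak list from Caenorhabditis elegans, numbered 631 of 4116 peaks (15.3%). The width of a peak is its end minus its start plus 1, and members were chosen by this width alone. The other 3485 peaks, of 5 kb or less, are called narrower peaks. CEC-7 is the product of Y37D8A.11, and the list came from 1 ChIP library of hermaphrodites with the genotype fem-2(b245)III kept at 20 °C. An input library of the same strain and stage was collected too and was not analysed here. The stage entry gives a young adult that contains a germ line, whereas the growth protocol harvested gravid adults, so that chromatin of embryos may be part of the sample. No replicate of the ChIP was analysed, so every value below describes this list, with no test and no measure of the spread between precipitations. Depth is unknown, because the list holds no read counts.

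CEC-7 belongs to the chromodomain proteins, whose name-giving domain recognises methylated histone lysines in several members. The middle parts of C. elegans autosomes carry many conserved and broadly expressed genes, and the arms carry more repeats and more histone H3 lysine 9 methylation. Most of the X chromosome is kept silent in many cells of the germ line. A domain in a peak list is a stretch that the peak caller reported as 1 enriched interval, so its edges depend on the caller as well as on the chromatin.

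The 631 domains had a median width of 6.61 kb, with quartiles of 5.59 and 8.27 kb, and 65 of them were wider than 10 kb. The narrower peaks had a median width of 2.01 kb and quartiles of 1.45 and 2.97 kb. Domains summed to 4.58 Mb and narrower peaks to 8.03 Mb, so that 36.3% of all bases inside a peak lay in a domain. Widths ran through the threshold without a gap. The 3 members just above it, at 5004, 5009 and 5010 bp, had scores of 268, 731 and 1136. The 3 peaks just below it, at 4997, 4996 and 4986 bp, had scores of 1241, 679 and 1286. These 6 peaks have overlapping scores, and the limit of 5 kb separates no distinct class in width.

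Domains were concentrated on chromosomes III and I. Chromosome III held 198 domains, chromosome I 176, chromosome II 120, chromosome IV 88, chromosome V 47 and X 2. The extent of a chromosome was measured up to the end of its last peak. Per Mb of extent this was 14.4 domains on III, 11.7 on I, 7.87 on II, 5.04 on IV, 2.25 on V and 0.116 on X. Domains were spread over the chromosomes more unequally than narrower peaks. Chromosome III made up 13.8% of the summed extents and carried 31.4% of the domains and 22.3% of the narrower peaks. Chromosome I made up 15.1% of the extents and carried 27.9% of the domains and 23.8% of the narrower peaks. Chromosome V made up 20.9% of the extents and carried 7.45% of the domains and 14.4% of the narrower peaks.

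The share of peaks that were domains followed the same order, against 15.3% in the whole list. It was 20.3% on III, 17.5% on I, 15.9% on II, 11.1% on IV, 8.55% on V and 4.88% on X, where only 41 peaks were called. Of the bases inside a peak, domains held 43.8% on III, 41.2% on I and 37.2% on II, but 27.7% on IV and 21.6% on V. Chromosomes with fewer domains per Mb thus also had a smaller part of their peaks in the broad class.

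**Figure D1:**
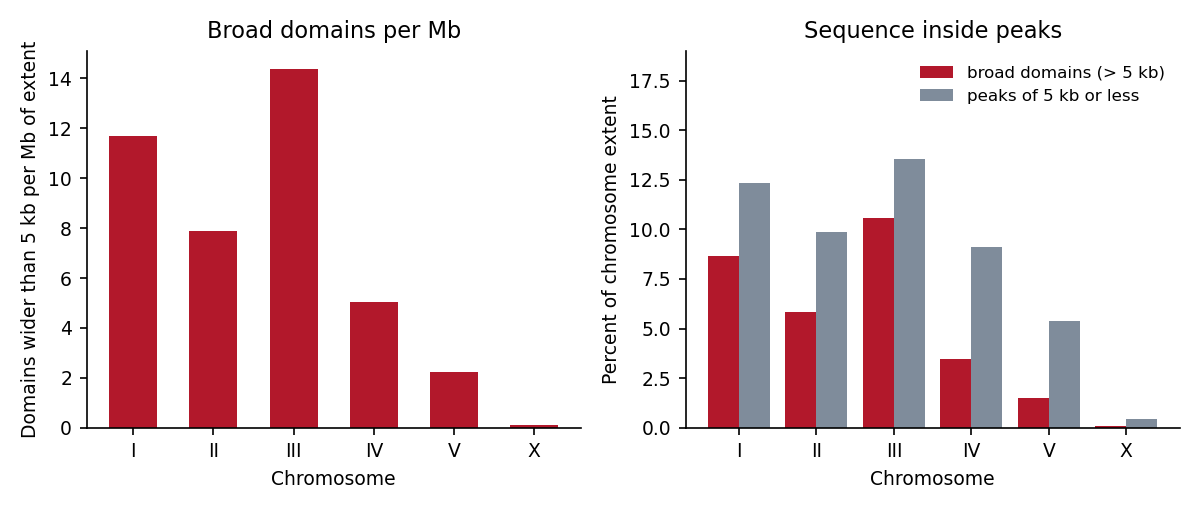
The left panel plots domains wider than 5 kb per Mb of chromosome extent, and the right panel the percent of each extent inside domains (red) and inside narrower peaks (grey). Chromosome III is highest in both panels, with 14.4 domains per Mb and 10.6% of its extent inside domains, and X is lowest with 0.116 per Mb and 0.078%.

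The width of a domain varied less between chromosomes than the number of domains did. The rule in part fixes this, since every domain is wider than 5 kb. Median widths were 6.62 kb on III, 6.54 kb on I, 6.78 kb on II, 6.60 kb on IV and 5.74 kb on V. The quartiles of all 5 autosomes overlapped, from 5.26 and 7.38 kb on V to 5.66 and 8.57 kb on II. The widest domains were unevenly placed. Of the 65 domains over 10 kb, 23 lay on III, 21 on I, 16 on II, 3 on IV, 2 on V and 0 on X.

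X had 2 domains, which is 0.317% of the domains, against 1.12% of the narrower peaks and 0.996% of all peaks. The first spanned 108732 to 114725, was 5.99 kb wide and had a score of 315. It lay near the left end of the chromosome, with the nearest narrower peak 27.9 kb away. The second spanned 2056610 to 2064198, was 7.59 kb wide and had a score of 1063, with the nearest narrower peak 52.6 kb away. The stretch between these domains was 1.94 Mb long and held 17 narrower peaks, and the 15.2 Mb from the second to the end of the extent held 15 narrower peaks. Both X domains stood farther from a narrower peak than the median domain, for which that distance was 1.52 kb.

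Along the autosomes, domains lay mostly in the middle. Each chromosome was divided into 3 equal segments, which do not follow the boundaries of the arms. The central segment held 337 of 629 autosomal domains (53.6%), against 1014 of 3446 narrower peaks (29.4%) and 33.2% of all autosomal peaks. All 5 autosomes had the same direction. On V the central segment held 63.8% of the domains and 32.2% of the narrower peaks, and on IV 54.5% of the domains and 31.1% of the narrower peaks. On III it held 45.5% of the domains and 25.6% of the narrower peaks. On II the shares were 56.7% of the domains and 28.8% of the narrower peaks, and on I 57.4% of the domains and 30.4% of the narrower peaks. The lowest share of domains, that of III, was therefore above the highest share of narrower peaks, that of V. These shares take all narrower peaks together. By width, the central share of autosomal peaks was 21.1% at 1 to 2 kb and 49.9% at 4 to 5 kb. It was 49.4% for domains of 5 to 6 kb. The narrower peaks just below the limit were thus about as central as the domains just above it.

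The extents were also divided into 10 equal bins and summed over the autosomes. In this sum, narrower peaks were fewest in the bin with the most domains. The bin from 30 to 40% of the extent held 110 domains and 259 narrower peaks, the highest count of domains and the lowest of narrower peaks among the 10 bins. There, 29.8% of peaks were domains. Between 30 and 70% each bin held from 93 to 110 domains, and each of the 3 bins on the left held from 31 to 43. The right side was not a mirror image of the left. The bin from 70 to 80% still held 63 domains, the bin from 80 to 90% held 13, and the last bin held 38. On no single autosome was the bin with the most domains also that with the fewest narrower peaks. On III the most domains (38) lay between 30 and 40%, and the fewest narrower peaks (37) between 40 and 50%. Between chromosomes, III and I had the most domains per Mb and also the most narrower peaks per Mb (56.4 and 55.0).

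In the bin between 80 and 90% there were 3 domains on V, 2 on IV, 3 on III, 4 on II and 1 on I. It was the lowest bin on I and III. On II and V other bins held fewer domains, and on IV the last bin held as many. Over the autosomes the same bin held 373 narrower peaks, and 3.37% of its peaks were domains. On chromosome III it contained 3 domains beside 131 narrower peaks, the highest number of narrower peaks in any of these bins on any autosome. In the last bin there were 4 domains on V, 2 on IV, 16 on III, 6 on II and 10 on I.

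**Figure D2:**
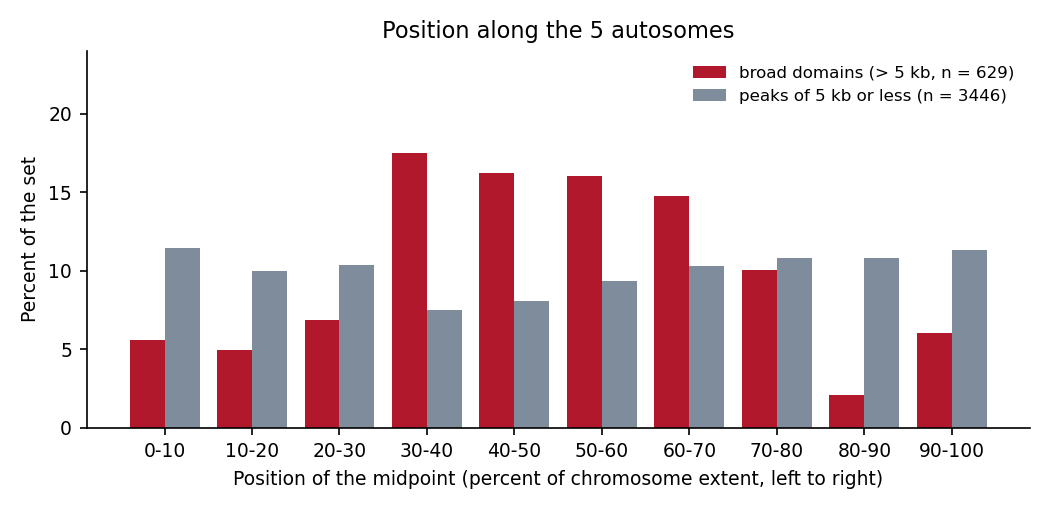
Percent of autosomal domains (red) and of autosomal narrower peaks (grey) in each of 10 equal bins of the chromosome extent, from the left to the right end, summed over the 5 autosomes. Domains reach 17.5% between 30 and 40% and drop to 2.07% between 80 and 90%, while narrower peaks stay between 7.52% and 11.4% in every bin.

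In windows of 1 Mb, the number of domains ranged from 0 to 30. Among 80 full autosomal windows the median was 5 domains, with quartiles of 2 and 12. The window of III from 5 to 6 Mb held 30 domains and 30 narrower peaks, with 24.8% of its bases inside domains and 8.96% inside narrower peaks. Next came III from 4 to 5 Mb with 24 domains, I from 5 to 6 Mb with 23, III from 8 to 9 Mb with 22 and I from 6 to 7 Mb with 21. The 13 windows with 15 or more domains contained 42.2% of all domains, against 17.8% of the narrower peaks. Of these windows 7 were on I, 5 on III and 1 on II.

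Autosomal windows without a domain still held between 12 and 38 narrower peaks. There were 6 of them, of which 4 were on V, 1 on I and 1 on II. The window of I from 12 to 13 Mb held 37 narrower peaks, and the windows of V from 0 to 1 Mb and from 4 to 5 Mb held 38 each. On X, 15 of 17 full windows had no domain, and 8 of these had no narrower peak either.

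On the autosomes the longest stretch between neighbouring domains was 3.22 Mb on V (14705628 to 17925191), and it contained 52 narrower peaks. On IV the longest was 1.60 Mb (15047745 to 16646746) with 17 narrower peaks, and on II it was 1.42 Mb (2911176 to 4335425) with 26. On I it was 1.25 Mb (11904035 to 13155224) with 49 narrower peaks. On III it was 0.905 Mb (11299684 to 12204830) with 79 narrower peaks, whose widths had a median of 1684 bp and whose scores had a median of 157. The stretches of I, III, IV and V lay toward the right end of the chromosome, and that of II on the left.

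Domains were unevenly spaced. The median distance between successive domains was 44.1 kb, edge to edge, and the mean was 125 kb. By chromosome the median was 27.6 kb on III, 31.5 kb on I, 46.0 kb on II, 81.8 kb on IV and 180 kb on V, and the mean exceeded the median on each autosome. Of the 625 distances, 102 were at most 5 kb and 98 were over 200 kb.

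From a domain, the nearest other domain lay at a median of 16.7 kb, and from a narrower peak the nearest domain lay at a median of 42.8 kb. Another domain within 5 kb was found for 184 domains (29.2%), and a domain within 5 kb for 653 narrower peaks (18.7%), against 20.3% over all peaks. Among narrower peaks this share was 15.0% at 1 to 2 kb and 27.2% at 4 to 5 kb. For domains of 5 to 6 kb it was 26.2%, so the peaks on either side of the limit were alike. A wide peak reaches closer to its neighbours with its edges. Measured between midpoints, the nearest other domain was within 10 kb for 20.4% of domains, and the nearest domain within 10 kb for 18.9% of narrower peaks. The median distance between midpoints was 23.6 kb from domains and 47.5 kb from narrower peaks. Midpoints hold wide peaks apart in turn, since peaks do not overlap and the midpoints of neighbouring domains are always more than 5 kb apart. The medians thus differed by either measure, whereas the difference at the shortest distances was small between midpoints. Neither measure is free of width, so the shares at short distances do not settle how much closer domains lie.

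Position entered the comparison as well. In the central segments, 32.6% of domains and 29.7% of narrower peaks had a domain within 5 kb. In the outer segments the shares were 25.3% of domains and 14.5% of narrower peaks. The outer segments were not alike. The shares were 32.0% of domains and 14.5% of narrower peaks in the left segments, and 18.3% of domains and 14.4% of narrower peaks in the right segments. The larger difference was thus on the left, and that of the right segments was near that of the centre. By chromosome, the shares were 37.4% of domains and 25.5% of narrower peaks on III, and 34.7% of domains and 22.6% of narrower peaks on I. On IV they were 14.8% of domains and 13.8% of narrower peaks, and on V 8.51% of domains and 7.95% of narrower peaks.

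**Figure D3:**
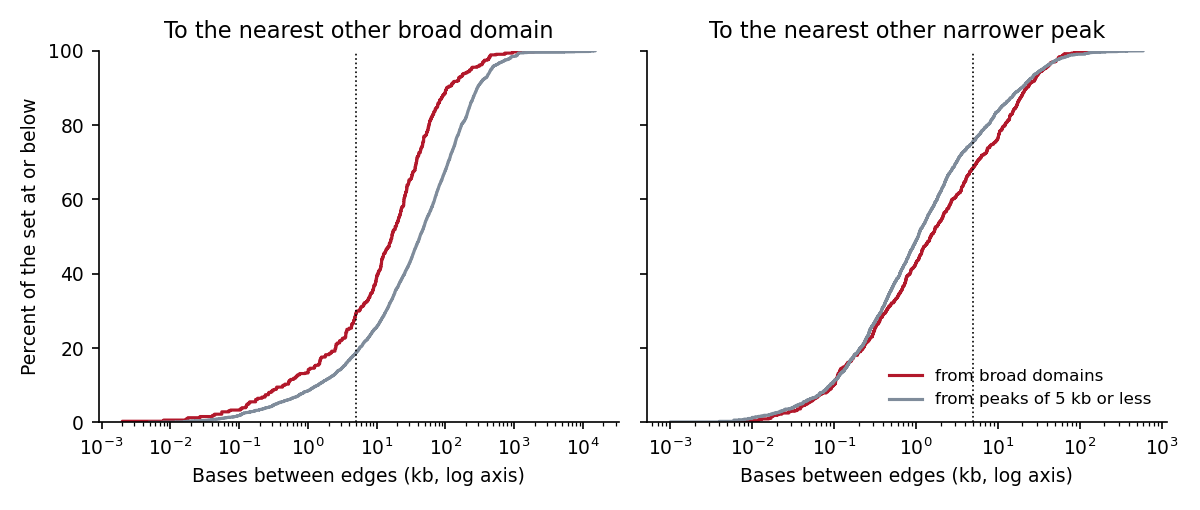
Cumulative percent of domains (red) and narrower peaks (grey) by the number of bases to the nearest other domain (left) and to the nearest other narrower peak (right), on log axes, with 5 kb dotted. Domains lie closer to other domains, with a median of 16.7 kb against 42.8 kb, and slightly farther from narrower peaks, with a median of 1.52 kb against 1.07 kb.

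Domains joined into chains when each lay within 5 kb of the next. There were 82 chains with 184 domains, of which 67 had 2 members, 10 had 3 and 5 had 4. They were found on III (31), I (27), II (16), IV (6) and V (2). In 63 of them no narrower peak lay between the members, and a median of 94.0% of the span was inside a peak. Both values follow in part from the rule for chains. Members are wider than 5 kb and at most 5 kb apart, which leaves little room between them. Among the 5 chains of 4 domains, the longest was on III (5690642 to 5730226), with 4 domains of 6.22 to 7.67 kb over 39.6 kb, 69.5% of the span inside a peak and scores of 635 to 1135. The second was on I (5101248 to 5139625), with 4 domains of 5.36 to 11.8 kb over 38.4 kb, 96.8% inside a peak and scores of 182 to 939. The third was on III (10402476 to 10434072), with 4 domains over 31.6 kb, 87.8% inside a peak and scores of 733 to 1344. Whether scores differ less within chains than between other domains was not tested.

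Most domains had a narrower peak nearby, but a smaller share of them than of the narrower peaks. A narrower peak lay within 5 kb of 432 domains (68.5%), and another narrower peak within 5 kb of 75.6% of the narrower peaks, with 74.5% over all peaks. In the central segments these shares were 61.7% of domains and 63.7% of narrower peaks, and in the outer segments 76.7% of domains and 80.8% of narrower peaks. By width, the share was 78.4% for narrower peaks of 1 to 2 kb and 67.3% for those of 4 to 5 kb. For domains of 5 to 6 kb it was 69.3%, so the contrast was absent next to the limit. Counted per domain, 199 had 0 narrower peaks within 5 kb, 239 had 1, 136 had 2 and 57 had 3 or more, with a maximum of 5. Narrower peaks lay on both sides of 112 domains (17.7%) and on 1 side of 320.

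Many of these distances were far below the width of a peak. The nearest peak of any width was within 1 kb of 332 domains (52.6%) and of 55.0% of narrower peaks, and within 100 bp of 84 domains (13.3%) and of 12.9% of narrower peaks. The smallest distance from a domain to another peak was 2 bp. No other peak lay within 20 kb of 37 domains (5.86%), against 6.23% of the narrower peaks. By the nearest peak of any width, the shares of domains and of narrower peaks lay within 3 percentage points of each other at 1 kb, 100 bp and 20 kb.

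Narrower peaks within 5 kb of a domain were somewhat wider than the others. Their median width was 2330 bp with quartiles of 1578 and 3324 bp, against a median of 1948 bp with quartiles of 1416 and 2859 bp for the 2832 narrower peaks farther away. Their median score was 200.0, against 157. The quartiles of width and score overlapped widely between these 2 sets. The sets also differ in position, since 29.7% of central and 14.5% of outer narrower peaks had a domain within 5 kb. Median scores of narrower peaks were 204 in central and 152 in outer segments. Whether near and far peaks differ at like positions was not tested.

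Each peak has a score that the authors' caller assigned to it, in a unit the file does not name. It is used only to rank and describe peaks within the list, and because it comes from the same ChIP as the width it supports nothing about the choice of members. Domains had a median score of 794 with quartiles of 459 and 1131, and narrower peaks a median of 165 with quartiles of 90.1 and 314. A score over 1000 was held by 219 domains (34.7%), by 39 narrower peaks (1.12%) and by 6.27% of all peaks. Of the 20 peaks with a score over 2000, 18 were domains.

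The relation of width and score was weaker within the broad class than among narrower peaks. Spearman's rank correlation was -0.01 across the 631 domains and 0.80 across the 3485 narrower peaks. The first value depends on the limits of the class. It was 0.11 without the 65 domains over 10 kb, 0.23 with a minimum width of 4000 bp, -0.26 with one of 7500 bp and 0.31 when peaks within 1000 bp of each other were merged first. These points share 1 library, and the range of widths differs between the sets, so the classes below are the plainer description. Among narrower peaks, the median score was 96.0 for widths of 1 to 2 kb, 223 for 2 to 3 kb, 391 for 3 to 4 kb and 526 for 4 to 5 kb. Among domains, it was 760 for 5 to 6 kb, 927 for 6 to 7.5 kb, 906 for 7.5 to 10 kb and 443 for the 65 domains over 10 kb. The median score was thus higher at 6 to 10 kb than at 5 to 6 kb and lower in the widest domains.

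The spread of scores was wider above 7.5 kb than below it. The quartiles were 513 and 994 at 5 to 6 kb (244 domains), 555 and 1206 at 6 to 7.5 kb (168 domains), 434 and 1314 at 7.5 to 10 kb (154 domains) and 172 and 1032 over 10 kb. Within a class the rank correlation of width and score went from 0.13 at 5 to 6 kb through 0.00 and -0.08 to -0.21 over 10 kb. By chromosome it was 0.10 on V, 0.07 on I, 0.02 on III, -0.15 on IV and -0.16 on II, against 0.74 to 0.83 across the narrower peaks of these chromosomes. On each of the 5 autosomes the value was lower across domains than across narrower peaks.

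**Figure D4:**
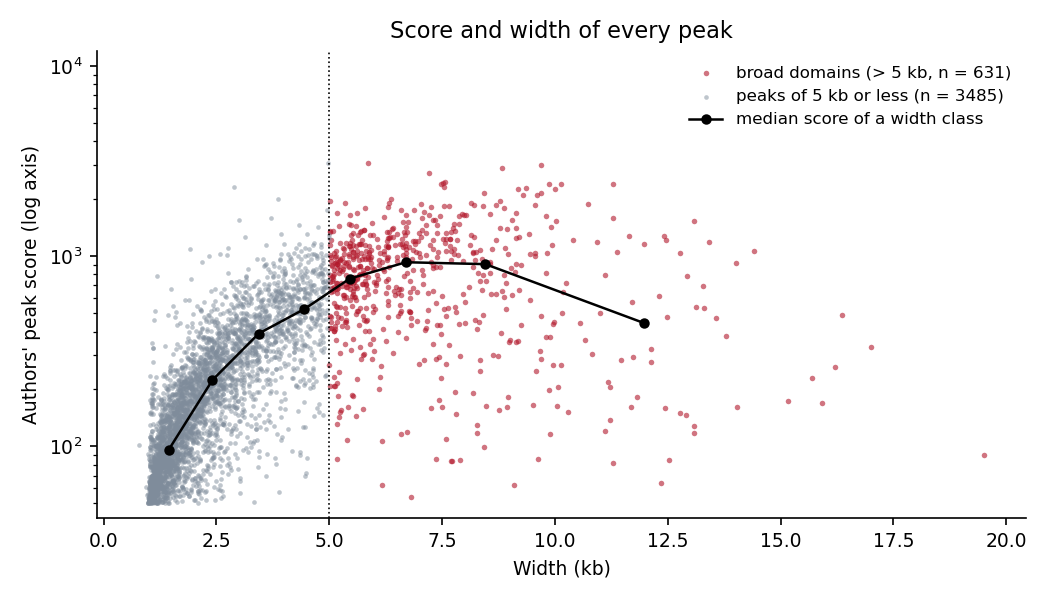
Each point is 1 peak, with its width in kb on the x axis and the authors' score on a log y axis; domains are red, narrower peaks grey, and the dotted line marks 5 kb. Black points join the median score of 8 width classes at the median width of each, from 96.0 at 1 to 2 kb up to 927 at 6 to 7.5 kb and down to 443 over 10 kb.

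A minority of domains were wide and scored low. Of the 631 domains, 57 (9.03%) had a score under the median of the whole list, 196, against 57.4% of narrower peaks and, by definition, 50% of all peaks. By width class these were 12 of 244 domains at 5 to 6 kb (4.92%), 9 at 6 to 7.5 kb (5.36%), 18 at 7.5 to 10 kb (11.7%) and 18 of 65 over 10 kb (27.7%). The low-scoring domains had a median width of 8.27 kb, and the other 574 domains a median width of 6.50 kb. They numbered 18 on I, 14 on III, 12 on II, 9 on IV, 4 on V and 0 on X.

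Low-scoring domains overlapped the others in placement. The central segment held 34 of the 57 (59.6%), against 53.0% of the other autosomal domains. Another peak of any width lay within 5 kb of 84.2% of them and of 82.1% of the others, and within 1 kb of 59.6% of them and of 51.9% of the others. Where the nearest narrower peak was within 5 kb, these neighbours had a median score of 183 beside low-scoring domains and of 197 beside other domains. Of the 18 low-scoring domains over 10 kb, 14 (77.8%) lay in a central segment, against 40 of all 65 domains over 10 kb (61.5%).

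The widest domains showed this range. The widest, 19.5 kb on I (6736789 to 6756289), had a score of 89.5 and ranked 3241 of 4116 by score. The second, 17.0 kb on III (5163388 to 5180386), had a score of 333, and the next, 16.4 kb on I (6011682 to 6028033), a score of 488. They were followed by domains of 16.2 kb on III (5587108 to 5603321) with a score of 260 and of 15.9 kb on III (8371891 to 8387810) with a score of 168. All 5 lay in central segments, and none reached the median score of the domains. The widest 4 had a narrower peak 232 to 691 bp away, and for the last of the 5 it was 5264 bp away.

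The 32 domains in the top 5% by score had a median width of 8.42 kb, with quartiles of 7.51 and 9.57 kb. They were thus wider than domains as a whole, with a median of 6.61 kb. The 5 domains with the highest scores were 5.85 to 9.69 kb wide, and none was among the 5 widest. Their scores were 3100 on I (13609699 to 13615552, 5.85 kb), 3013 on III (5449620 to 5459312, 9.69 kb) and 2894 on V (7916534 to 7925358, 8.83 kb). Then came 2738 on III (4991150 to 4998361, 7.21 kb) and 2449 on III (3417069 to 3424634, 7.57 kb). The highest stood alone among domains, with the nearest other 168 kb away, whereas the domain scoring 3013 had another domain 1.53 kb away. Those scoring 3013, 2894 and 2738 lay in central segments, that scoring 2449 in a left and that scoring 3100 in a right segment.

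The lowest score among domains, 53.8, belonged to a 6.82 kb domain on II (1145222 to 1152036), close to the lowest score in the list, 50. It was followed by a 9.10 kb domain on II (2902076 to 2911175) with 62.6 and a 6.18 kb domain on V (1374566 to 1380743) with 62.7. All 3 lay in left segments. The last of them was remote from other peaks, with 111 kb to the nearest narrower peak and 357 kb to the nearest domain.

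Scores of domains overlapped between chromosomes and between segments. The median score was 901 on III, 797 on II, 786 on I, 753 on V and 693 on IV, and the quartiles of all 5 overlapped. In the central segments the median was 814 with quartiles of 478 and 1139, and in the outer segments it was 734 with quartiles of 434 and 1120. Domains of the central segments had a median width of 6.70 kb, and those of the outer segments one of 6.33 kb. Narrower peaks had a median score of 204 if central and of 152 if outer.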

How the data were processed

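The members and the comparisons were chosen with earlier results of these data known, and the classes of width over 5 kb, the limits of score and the distance between midpoints were chosen after the values were seen. The deposited list gave positions (1-based, WormBase WS220) and a score for each of 4116 peaks, called with MACS per the file headers. BWA and the build ce10, the UCSC name of WS220, are named per the submitters' processing notes; for versions, read filters and the use of the input, the entry is "not given in the sources used here". No WS220 sequence or annotation was used, so domains are not assigned to genes. Distances are the bases between edges unless midpoints are named. Named regions were the 5 widest domains, the 5 with the highest and the 3 with the lowest score, the X domains, 3 peaks on each side of 5 kb, the 3 chains with the most domains (the longer span first) and the longest stretch between domains on each chromosome. No p-value was computed, since 1 ChIP library allows none. The functions for distances, merging and ranks were tested on simulated lists. The calculations ran in Python 3.11.15 with pandas 2.3.3, numpy 2.4.6 and matplotlib 3.10.9.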

Additional observations from a re-analysis of the deposited data

How the results depend on the processing

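Of 73 alternative values, 41 stayed within 1.5 times the count or within a 95% interval around the value as deposited, and 32 moved beyond it. The order of domains and narrower peaks changed in 0 of those that have a value for narrower peaks. The number of domains and their share of covered bases have no such value, so no change of order could be found for them. The intervals treat peaks as independent, which they are not. That for the share of covered bases was computed as if it were a share of peaks, so whether this share stayed or moved means little. Leaving out the first 250 kb of each chromosome or peaks over 10000 bp was chosen after seeing the data. The number of domains was 980 at a minimum width of 4000 bp and 219 at 7500 bp. Domains held 48.7% of the covered bases at 4000 bp, 16.8% at 7500 bp, 46.7% in the better-scored part of the list, 64.9% after merging peaks within 1000 bp, and 34.7%, 33.7%, 38.2% and 38.2% without chromosome I, III, IV or V. Their median score was 667 at 4000 bp, 723 at 7500 bp, 860 in the better-scored part and 614 after merging. The rank correlation of width and score was 0.23 at 4000 bp, -0.26 at 7500 bp, 0.10 in the better-scored part, 0.31 after merging and 0.11 without peaks over 10000 bp, so its value near 0 depends on the limits of the class; it stayed below that of the narrower peaks each time. The central share of domains was 43.3% after merging, against 30.4% for narrower regions, and 72.8% in the central 50% of the extents, against 45.0%. Domains with another domain in reach made up 40.0% at 4000 bp, 8.68% at 7500 bp, 18.2% within 2000 bp, 38.8% within 10000 bp and 25.4% without chromosome III. In the same order, the shares of narrower peaks were 27.6%, 7.31%, 11.8%, 25.6% and 16.8%. Domains with a narrower peak in reach made up 61.2% at 4000 bp, 78.5% at 7500 bp, 44.1% in the better-scored part, 42.7% after merging, 54.2% within 2000 bp and 76.2% within 10000 bp. In that order, the shares of narrower peaks were 72.6%, 80.3%, 48.9%, 48.0%, 62.1% and 83.7%. At 7500 bp the shares of domains and of narrower peaks were thus close for both kinds of neighbour. The causes were not tested. No paired analysis was possible because no second ChIP library was analysed. Occupancy below the authors' cutoff was not detectable, and a gap of a few bases between peaks can divide a domain.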

Other observations

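The broad class depended on where the caller ended a peak. When peaks with 1000 bp or less between them were merged, 4116 peaks became 2735 regions, and 919 of these (33.6%) were wider than 5 kb. Of these, 349 contained no domain of the deposited list and were made of narrower peaks alone, 516 contained 1 domain and 54 contained 2 or more. Of the 631 domains, 299 (47.4%) had no peak within 1000 bp and stayed as they were. The median width of the 919 regions was 7.88 kb.

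The widest merged region, 38.4 kb on I (5101248 to 5139625), was made of 5 peaks, of which 4 were domains. A region of 28.9 kb on I (3567826 to 3596682) was made of 11 narrower peaks and contained no domain. It was the fifth widest of the merged list, and its highest part had a score of 1106. The widest domain of the deposited list was 19.5 kb, so this row of narrower peaks was longer than any single domain.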
